A study of Homo sapiens with 6 samples.

Results

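The genes described here are 10 receptors and adaptors through which myeloid cells read antibodies and related ligands: the signalling chains FCER1G and TYROBP, the antibody receptors FCGR1A, FCGR2A, FCGR2B, FCAR and FCGRT, and the immunoglobulin-like receptors TREM1, TREM2 and MILR1. They were represented by every probe set whose platform annotation gives 1 of these symbols and no other, which was 16 of the 54613 probe sets that are not Affymetrix controls, and 10 of 19775 genes. RNA came from U937T:PLZF-RARa, a human cell line derived from the monocytic line U937 and engineered to make the leukaemia fusion protein PLZF-RARA when tetracycline is absent. The 3 uninduced samples were kept in tetracycline at 0.1 µg/ml, and the 3 induced samples were washed and grown without it for 48 h. The titles of the uninduced samples carry the same 48 h, but their source label says before induction. Whether the controls were matched in time is therefore not settled, and the wash and time in culture may also differ between the groups. Both groups grew in puromycin (0.5 µg/ml) and G418 (1 mg/ml) and carry the same construct, so the controls differ from the induced cells in tetracycline as well as in the fusion. The sources used here do not say whether the line is 1 clone or whether each replicate had its own culture, so the p-values cover only the spread among these 6 samples, which may be technical. The comparison asks how the fusion alters transcript levels.

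Fc receptors bind the constant part of antibodies. FCGR1A (CD64), FCGR2A (CD32A) and FCGR2B (CD32B) bind IgG, FCAR (CD89) binds IgA, and FCGRT is the heavy chain of the neonatal Fc receptor, which carries IgG through endosomes and spares it from breakdown. FCGR1A, FCAR, TREM1 and TREM2 have short tails and signal through a partner chain, FCER1G for the antibody receptors and TYROBP (DAP12) for the TREM proteins, whose cytoplasmic motif, the ITAM, is phosphorylated by SRC family kinases and then recruits the kinase SYK. FCGR2A carries an ITAM of its own, while FCGR2B and MILR1 (Allergin-1), a receptor known from mast cells, carry the inhibitory counterpart, the ITIM, which recruits phosphatases.

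Of the 16 probe sets, 8 were bright enough to test and 8 were not. A probe set was tested where 3 or more of the 6 arrays gave a log2 intensity over 4, which is 16 on the deposited scale. Tested with limma over all 20552 probe sets that met this, 5 of the 8 were higher and 3 lower in induced samples at an adjusted p under 0.05, against 34.6% higher and 27.9% lower, or 62.5% in all, among every probe set tested. That balance turned with the scaling: as deposited, 7112 rose and 5733 fell, but quantile normalization of the arrays gave 6760 and 8079, and centring each array on its median gave 6579 and 7106. The groups did not overlap in any of the 8, as in 70.2% of all tested probe sets. MILR1 and TREM2 met the filter only through the group in which they were bright, so these counts say little about the genes as a set. By gene, 4 were higher (FCER1G, TYROBP, MILR1 and FCGR2A), 3 lower (TREM2, FCAR and FCGRT), where 35.8% of all 9836 genes tested were higher and 30.7% lower, and 3 not tested (FCGR1A, FCGR2B and TREM1). In bulk RNA, fewer cells with a transcript and less of it in each cell cannot be told apart.

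**Figure D1:**
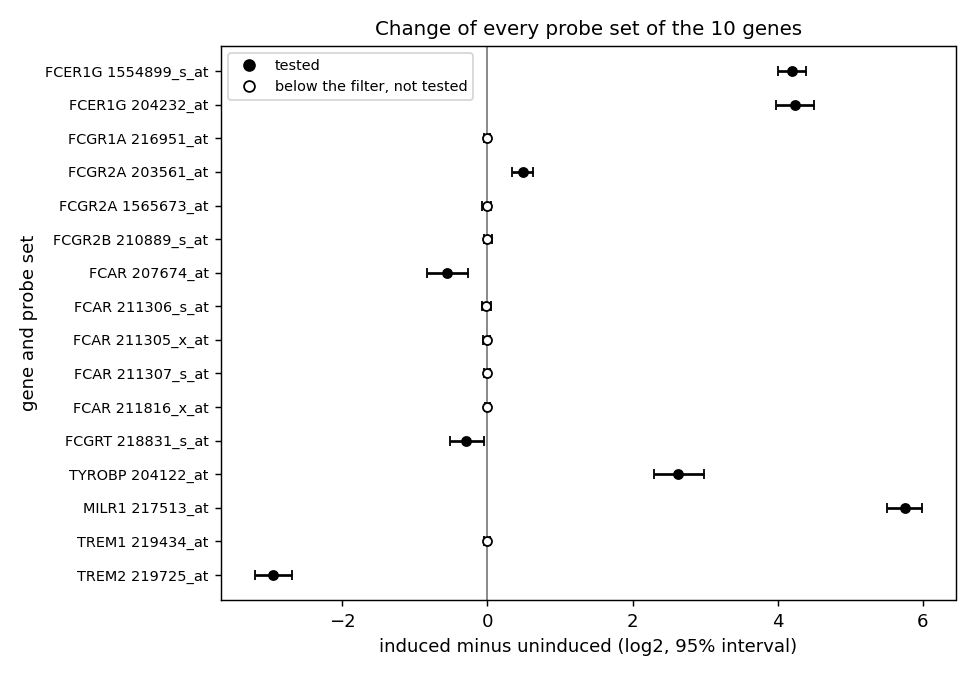
Change of each of the 16 probe sets, as the mean log2 intensity of 3 induced minus 3 uninduced arrays, with its 95% interval from limma. Filled points were tested and open points lay below the filter; MILR1 at 5.75 and TREM2 at -2.95 mark the ends, and the open points all sit at 0 within 0.02.

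The arrays were alike within each group, with r = 0.9963 to 0.9976 over the tested probe sets, against 0.9317 to 0.9381 between groups. Uninduced replicate 3 had a lower upper quartile of log2 intensity (6.92) than the remaining arrays (7.11 to 7.18). As a measure of RNA integrity, the GAPDH control's 3' probe set exceeded its 5' probe set on the log2 scale by 0.503 ± 0.025 in uninduced and 0.58 ± 0.034 in induced samples (SD, n = 3 each, two-sided exact permutation p = 0.1, the smallest that 3 against 3 can give). For the ACTB control the excess was 1.25 ± 0.083 in uninduced and 1.41 ± 0.1 in induced samples (two-sided exact permutation p = 0.2), and the groups overlapped. The RARA probe set 211605_s_at lay at 1.99, 1.81 and 1.82 in the uninduced and at 7.73, 7.62 and 7.4 in the induced samples; which part of the transcript it covers was not analysed here, and of the 3 other tested RARA probe sets, 203749_s_at fell from 5.16 to 3.99 (difference -1.17; limma, adjusted p = 1.1e-05), while 203750_s_at and 216300_x_at did not pass. Of the 13 myeloid markers listed for the line, ELANE (6.95-fold), LYZ (1.8-fold) and ITGB2 (1.61-fold) were lower, PTPRC (3.41-fold), CD4 (1.18-fold) and ITGAM (difference 0.99 on the log2 scale) were higher, and CD14, CSF1R, ANPEP, MPO and ITGAX lay below the filter on all 6 arrays and for 2 of them no probe set was assigned to that gene alone. The summed intensity of the listed markers was 30100 to 33200 in uninduced and 27400 to 28500 in induced samples; their part in the results was not tested.

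FCER1G, the gamma chain shared by FCGR1A, FCAR and the high-affinity IgE receptor, was much higher after induction. Its probe set 1554899_s_at read log2 intensities of 9.71, 9.51 and 9.44 in the uninduced and 13.78, 13.7 and 13.77 in the induced samples. The groups lay far apart, and the induced arrays had an SD of 0.04. The difference was 4.20 (95% interval 4.0 to 4.39), an 18.3-fold rise (limma, adjusted p = 2.39e-07). The second probe set, 204232_at, went from 8.70, 8.72 and 8.35 to 12.77, 12.89 and 12.82 and gave nearly the same size, 18.9-fold (difference 4.24, 95% interval 3.98 to 4.50; limma, adjusted p = 5.87e-07). In size both changes stood above 99.5% of all tested probe sets.

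TYROBP, the adaptor of the TREM receptors and of many activating receptors of myeloid and NK cells, rose too. It read 6.92, 6.88 and 6.39 in the uninduced and 9.29, 9.45 and 9.35 in the induced samples. Uninduced replicate 3, the array with the lowest upper quartile, was the lowest here, and all induced arrays were above all uninduced ones. The mean went from 6.73 ± 0.29 to 9.37 ± 0.08 (SD, n = 3 each), a 6.21-fold rise (difference 2.63, 95% interval 2.29 to 2.98; limma, adjusted p = 9.19e-06), and the difference was 2.47 without that array. The intervals of the FCER1G and TYROBP changes did not overlap, but they belong to different probe sets. Probe sets of the same gene can differ as much: LAT, described below, gave 4.25 on 211005_at and 1.6 on 209881_s_at. The intervals therefore do not show which transcript rose more.

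**Figure D2:**
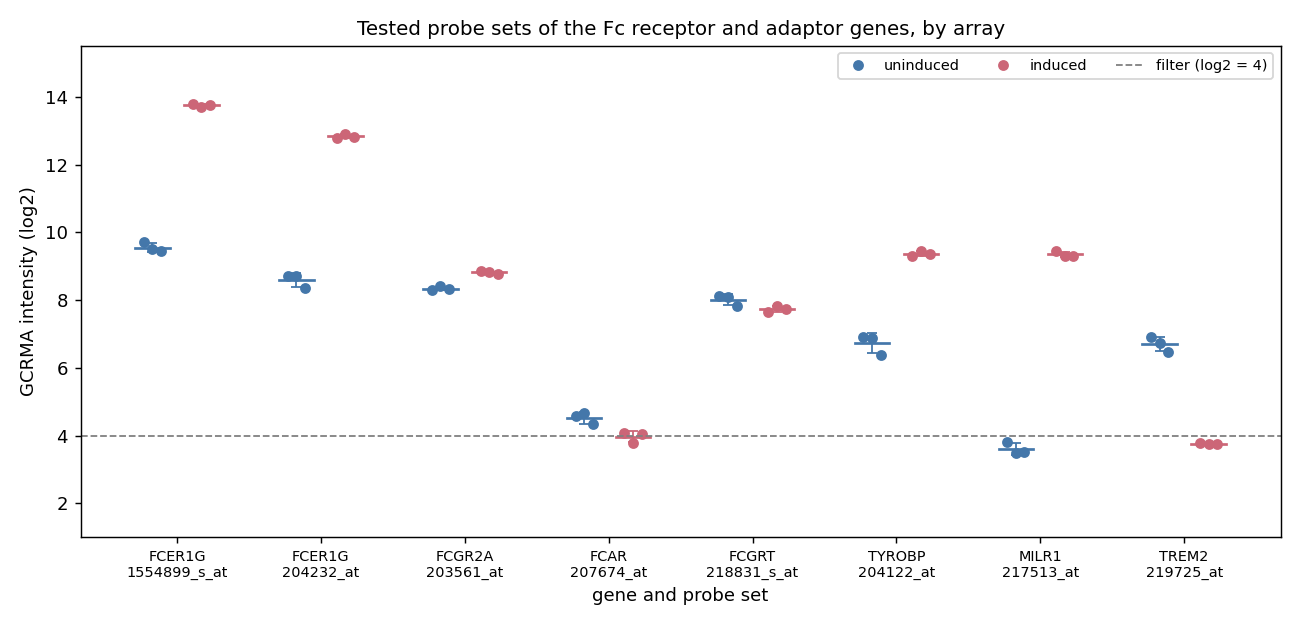
Log2 GCRMA intensity of the 8 tested probe sets on each of the 6 arrays, with a point per array, a bar at the group mean and whiskers of 1 SD; the dashed line is the filter. FCER1G, TYROBP and MILR1 are far higher in induced samples, TREM2 falls below the line, and FCGR2A, FCAR and FCGRT shift by 0.56 or less.

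The promoters of the 2 adaptor genes that rose are shown because both genes changed in the same direction while SPI1 (PU.1), a myeloid factor known to act at Fc receptor promoters, fell at least 8.7-fold: it read 7.28, 6.90 and 7.18 in the uninduced and 2.81, 3.20 and 3.48 in the induced samples (limma, adjusted p = 4.32e-06). FCER1G lies at chr1:161215295-161219245 and TYROBP at chr19:35904403-35908295 on the minus strand (RefSeq, GRCh38.p14). The windows are the 250 bases before each gene's start, chr1:161215045-161215294 and chr19:35908296-35908545, written 5' to 3' on the gene's strand. Capitals mark matches, on either strand, to GAGGAA (a core bound by PU.1), TTCNNNGAA (the element bound by STAT factors) or AGGTCA (the half-site of retinoid receptors), where N is any base.
FCER1G: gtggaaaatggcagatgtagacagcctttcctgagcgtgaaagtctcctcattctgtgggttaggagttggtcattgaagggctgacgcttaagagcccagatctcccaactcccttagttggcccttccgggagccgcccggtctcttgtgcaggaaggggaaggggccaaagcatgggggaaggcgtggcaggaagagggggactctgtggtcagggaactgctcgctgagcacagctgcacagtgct
TYROBP: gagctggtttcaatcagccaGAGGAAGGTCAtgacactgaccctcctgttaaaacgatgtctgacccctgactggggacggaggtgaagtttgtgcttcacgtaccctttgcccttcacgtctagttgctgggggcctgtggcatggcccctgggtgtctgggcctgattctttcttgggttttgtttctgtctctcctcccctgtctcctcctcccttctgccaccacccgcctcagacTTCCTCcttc

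The FCER1G window held none of the 3 motifs as spelled here, and shorter or other forms of them were not searched for. The TYROBP window held GAGGAA 2 times, 230 to 225 bases before the start and, on the opposite strand, 10 to 5 bases before it, and AGGTCA 1 time, which shares its first base with the upstream GAGGAA. Over the 35116 promoter windows of the table, 23.6% held GAGGAA, 6.57% TTCNNNGAA and 12.1% AGGTCA. Of the 9 windows of 8 genes (FCAR and MILR1 had none in the table), 4 held GAGGAA (FCGR1A, FCGR2A, TYROBP and 1 of the 2 FCGR2B windows), 3 held TTCNNNGAA and 3 AGGTCA. A match describes the letters of the window and is not a binding site.

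The gene next to TYROBP is HCST, which encodes DAP10, a related adaptor with a motif that recruits PI3 kinase; the ends of the 2 genes lie 25 bases apart. HCST read 10.53, 10.46 and 10.41 in the uninduced and 11.74, 11.81 and 11.71 in the induced samples, a 2.43-fold rise (limma, adjusted p = 5.98e-06). This neighbour was looked up after the values had been seen. The gene on the other side of TYROBP, LRFN3, did not pass the test. The ITAM chains of the T and B cell receptors, CD247, CD3D, CD3E, CD3G, CD79A and CD79B, were not tested, and 5 of these 6 lay below the filter on every array.

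FCGR2A, the activating IgG receptor with its own ITAM, rose little. Its probe set 203561_at read 8.30, 8.40 and 8.32 in the uninduced and 8.87, 8.83 and 8.78 in the induced samples. The groups did not overlap, and the difference of 0.49 (95% interval 0.34 to 0.63) was a 1.4-fold rise (limma, adjusted p = 0.000394). In size it stood above 56.2% of tested probe sets, so it was a middling change for this comparison. The other FCGR2A probe set, 1565673_at, lay at 2.56 in uninduced and 2.54 in induced samples, below the filter.

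FCGR2C is nearly identical to FCGR2A and FCGR2B, so their probe sets may read more than 1 of these genes. The FCGR2C probe set 211395_x_at differed by 0.27 (limma, adjusted p = 0.132). The other bright one, 210992_x_at, went from 6.96, 6.82 and 6.94 to 7.18, 7.09 and 7.11, a difference of 0.22 (limma, adjusted p = 0.0225). That call was lost after quantile normalization (0.10, adjusted p = 0.317), after median centring (0.14, adjusted p = 0.187), with a trended and robust eBayes (0.22, adjusted p = 0.063) and without uninduced replicate 2 (0.18), induced replicate 1 (0.20) or induced replicate 3 (0.23). FCGR2B, the inhibitory IgG receptor, had 1 probe set, 210889_s_at, at 2.43 and 2.44.

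FCGR1A, the high-affinity IgG receptor, could not be followed on its own. The only probe set assigned to it alone, 216951_at, read 2.13 to 2.15 in the uninduced and 2.12 to 2.16 in the induced samples. The pseudogene FCGR1BP, which shares most of its sequence with FCGR1A, had a bright probe set, 214511_x_at, that went from 9.08, 8.91 and 8.83 to 6.96, 7.22 and 7.02. It fell 3.66-fold (difference -1.87, 95% interval -2.11 to -1.64; limma, adjusted p = 7.4e-06). The annotation gives probe set 216950_s_at to FCGR1A, FCGR1BP and FCGR1CP at once. It went from 8.17, 8.06 and 7.79 to 6.06, 6.0 and 6.30 and fell by a like amount, 3.69-fold (limma, adjusted p = 2.02e-05). Which transcript of the family these 2 probe sets read was not tested. Transcripts of the low-affinity receptor FCGR3B lay at 2.04 in both groups.

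**Figure D3:**
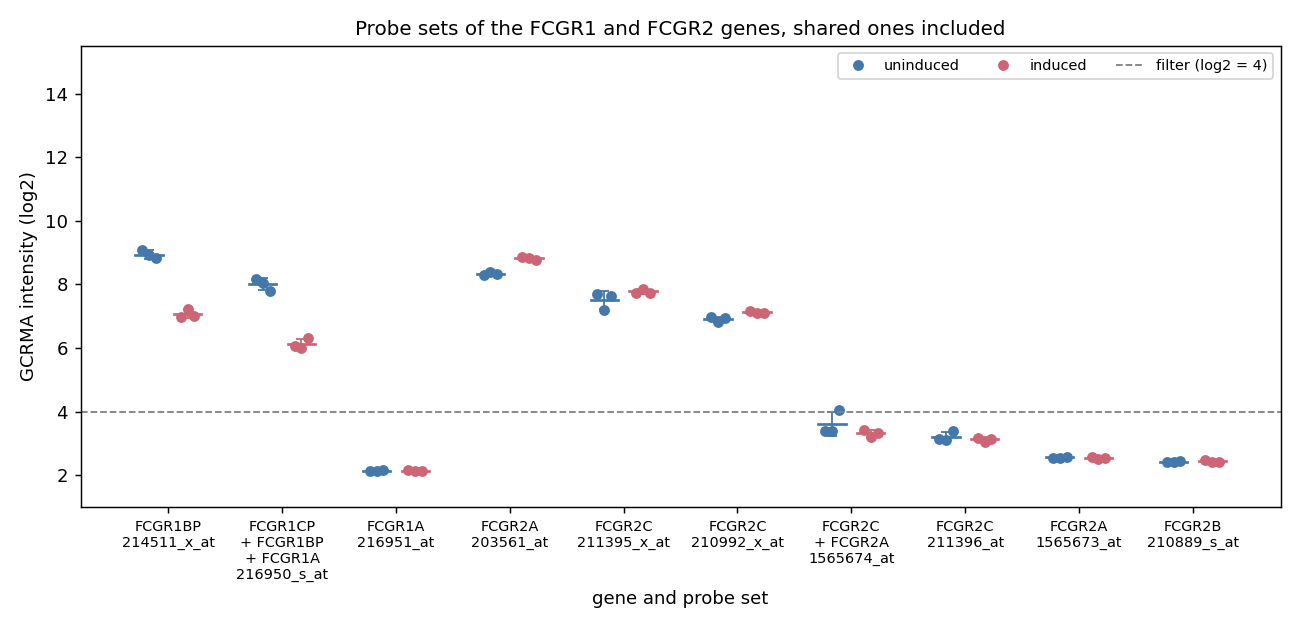
Log2 GCRMA intensity on each array of every probe set assigned to FCGR1A, FCGR2A, FCGR2B or their near-identical relatives, shared probe sets included, with group means and SD whiskers. The 2 bright FCGR1 family probe sets fall by 1.87 and 1.88, FCGR2A 203561_at rises by 0.49, and the probe sets assigned to FCGR1A or FCGR2B alone stay near 2.

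The FCGR1A and FCGR2A promoters share the longest run of bases among the 35 pairs of windows from different genes, 20 bases against 11 for the next pairs. The run was looked for after the values had been seen. It is shown because the PU.1 core GAGGAA, read on the opposite strand, lies inside it in both genes. The bright FCGR1 family probe sets fell and FCGR2A rose, but the probe set of FCGR1A alone read 2.14 in both groups. Any part of the promoter sequence in these changes was not tested. Capitals mark the shared run, with 10 bases on each side, at chr1:149782632-149782671 for FCGR1A and chr1:161505396-161505435 for FCGR2A (RefSeq, GRCh38.p14, plus strand).
FCGR1A: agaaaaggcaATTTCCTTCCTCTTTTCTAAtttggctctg
FCGR2A: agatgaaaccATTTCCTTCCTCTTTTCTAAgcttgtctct

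The run starts 52 bases before the FCGR1A start and 51 bases before the FCGR2A start, and no window of another gene in the table held it. The FCGR1A window also held TTCNNNGAA, 93 to 85 bases before the start, which the FCGR2A window did not.

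FCAR, the IgA receptor, was dim and lower after induction. Its probe set 207674_at read 4.58, 4.66 and 4.33 in the uninduced and 4.08, 3.78 and 4.04 in the induced samples. Because 1 of the 3 induced arrays fell under the filter, only the difference is given: it was -0.56 (95% interval -0.84 to -0.27; limma, adjusted p = 0.00545). The other 4 FCAR probe sets lay between 2.20 and 3.0 on every array. FCGRT, which needs B2M as its light chain, read 8.13, 8.10 and 7.82 in the uninduced and 7.65, 7.81 and 7.73 in the induced samples. The groups were separated by no more than 0.01, between uninduced replicate 3 and induced replicate 2. The difference of -0.29 (95% interval -0.52 to -0.05), 1.22-fold, just passed (limma, adjusted p = 0.0403). The call was lost when no filter was applied (adjusted p = 0.117), without uninduced replicate 1 or 2, or without induced replicate 1, 2 or 3 (differences of -0.32 to -0.23, adjusted p = 0.055 to 0.122). B2M itself was 1.24-fold higher, from 14.97 ± 0.07 to 15.27 ± 0.02 (SD, n = 3 each; limma, adjusted p = 0.0045).

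Of the 3 immunoglobulin-like receptors, MILR1 rose, TREM2 fell and TREM1 was not tested. MILR1 was at or near the dim end in uninduced samples, at 3.80, 3.48 and 3.51, and bright in induced samples, at 9.44, 9.29 and 9.30. All uninduced arrays were below the filter, so the rise is given as at least 40.7-fold, on the 1 probe set of the gene (217513_at; limma, adjusted p = 1.88e-07). Its genomic neighbours PECAM1 and DDX5 did not pass the test, and the DDX5 gene lies 897 bases from MILR1.

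MILR1 is best known from mast cells, so the mast cell and basophil markers are given beside it. Of 8 such markers with a probe set, the tryptase genes TPSAB1 (2.79-fold) and TPSB2 (3.76-fold) rose, although the 2 genes are so alike that their probe sets may read both. FCER1A, CPA3, HDC, KIT, CMA1 and IL1RL1 lay below the filter on every array of both groups. The summed intensity of the 8 was 98.1 to 129 in uninduced and 264 to 295 in induced samples. Of 8 T and NK cell markers 1 was tested, NCAM1, which was 2.17-fold higher, and CD2, CD3D, CD5 and KLRB1 lay below the filter on every array; the summed intensity of that list was 396 to 477 in uninduced and 874 to 931 in induced samples. Of 6 B and plasma cell markers only PAX5 was tested and it did not pass, and of 5 erythroid and platelet markers none was tested. The mature neutrophil markers CXCR2 and CSF3R fell 1.87-fold and 1.55-fold, and the other 5 of 7 were below the filter. The part of any of these markers in the MILR1 result was not tested.

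TREM2, a lipid-sensing receptor of macrophages and microglia that signals through TYROBP, went the other way from its adaptor. It read 6.90, 6.72 and 6.48 in the uninduced and 3.77, 3.74 and 3.74 in the induced samples. No induced array was above the filter, so the fall is at least 6.51-fold (measured difference -2.95, 95% interval -3.21 to -2.70; limma, adjusted p = 2.05e-06). TREM1, an amplifier of inflammation that uses the same adaptor, lay at 2.45 in uninduced and 2.44 in induced samples, with no array above the filter. TREM1 and TREM2 lie in 1 cluster on chromosome 6 with TREML1, TREML2, TREML4 and NCR2, none of which was bright enough to test; TREML2 read 2.12 and 3.70.

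The list of other receptors that use FCER1G or TYROBP, which also holds relatives such as TREML1 and TREML2, was mostly dim. Of 21 with a probe set 5 were tested, of which 4 rose and 1 fell. Of these, CD300C and SIGLEC15 met the filter only through the induced group, and with the stricter filter (log2 over 6) 2 rose, so the count says little about the list. LILRA2, an activating receptor of monocytes, read 9.59 ± 0.10 in uninduced and 11.39 ± 0.04 in induced samples (SD, n = 3 each), 3.49-fold higher (limma, adjusted p = 2.75e-06). CD300C was at least 3.25-fold and SIGLEC15 at least 2.52-fold higher, each with no uninduced array above the filter. CLEC5A, a TYROBP-linked lectin of myeloid cells, was bright in both groups and 1.66-fold lower (limma, adjusted p = 0.000107). Of 16 other Fc receptor and Fc receptor-like genes with a probe set, 13 lay below the filter on all arrays. By the brightest probe set, FCGR1BP fell, and FCGR2C and TRIM21 (an Fc receptor of the cytosol) did not pass; the dimmer FCGR2C probe set is described above.

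Below the receptors, 15 of 31 tested kinases and adaptors rose and 9 fell, while 7 missed the threshold, with a median difference of 0.17 on the log2 scale. Over all 9836 genes tested, 35.8% were higher and 30.7% lower, 66.5% in all, with a median of 0.02; neither these counts nor those of the other lists are read as particular to a list. SYK, the kinase that docks on the phosphorylated ITAM, was 1.35-fold lower, from 11.27, 11.22 and 11.10 to 10.67, 10.85 and 10.76 (limma, adjusted p = 0.00238). LAT, a membrane scaffold best known from T cells and mast cells, rose on both tested probe sets: at least 15.7-fold on 211005_at, where all uninduced arrays were below the filter, and 3.03-fold on the dimmer 209881_s_at, which was above it on all 6 arrays (4.78 to 6.38; limma, adjusted p = 0.000579). The SRC family kinase YES1 was 7.48-fold and the exchange factor VAV3 2.38-fold higher, and the kinase BTK was 2.93-fold lower. The SRC family kinase LYN differed by 0.10 (95% interval -0.07 to 0.26; limma, adjusted p = 0.256).

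Among the actin and uptake genes that serve phagocytosis, 13 of 25 tested rose, 4 fell and 8 did not pass, with a median of 0.25, near the 66.5% called among all genes. GSN (gelsolin), which severs actin filaments, went from 4.94 ± 0.38 to 10.17 ± 0.10 (SD, n = 3 each), 37.4-fold higher (limma, adjusted p = 1.79e-06). WAS, the activator of the Arp2/3 complex, was 5.04-fold higher, and ARPC1B, a subunit of that complex, was 2.12-fold lower. PLD1, a phospholipase, rose on 2 of its 3 tested probe sets, 2.40-fold on the brightest and 1.26-fold on 232530_at (limma, adjusted p = 0.0425). On 232530_at the groups overlapped, with induced replicate 2 at 5.53 and uninduced replicate 2 at 5.56. The third, 205203_at, did not pass (difference 0.09, limma, adjusted p = 0.513).

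The inhibitory side went both ways. Of 12 tested receptors with an ITIM or a related motif, 3 rose and 5 fell, with a median of -0.15, again near the 66.5% of all genes. Without _x_at and _s_at probe sets, 2 fell. CLEC12A was 2.90-fold and CD300A 5.38-fold higher, while SIRPA, the receptor for CD47, was 2.57-fold and CD300LF 3.28-fold lower. Of 15 phosphatases, kinases and adaptors that limit ITAM signalling, 8 rose and 3 fell, with a median of 0.34, and 1 fell without _x_at and _s_at probe sets. The adaptors SLA (6.16-fold) and SLA2 (6.47-fold), the scaffold PAG1 (4.76-fold) and PTPRC (CD45, 3.41-fold), a phosphatase that also activates SRC family kinases, were higher. PTPN6 (SHP-1), the phosphatase recruited by ITIMs, was named after its values were seen and was 3.40-fold lower, from 10.36, 10.37 and 9.97 to 8.67, 8.39 and 8.34 (limma, adjusted p = 4.51e-05).

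Of the partners, ligands and shedding proteases, 4 of 5 tested genes rose and 1 did not pass. CLU (clusterin), a known ligand of TREM2, was 8.89-fold higher, and ADAM10 (1.68-fold) and ADAM17 (1.92-fold), proteases that cut TREM2 from the cell surface, were higher as well. PGLYRP1, a ligand of TREM1, and APOE, another ligand of TREM2, lay below the filter on every array. Of 8 tested transcription factors known at Fc receptor promoters 5 fell and 3 rose, with a median of -1.57. With SPI1, IRF8 (5.86-fold) and CEBPB (3.36-fold) were lower, and ELF1 was 2.08-fold higher. Over the 9 lists around the members, 51 of 105 tested genes rose and 28 fell, which is 75.2% called, against 66.5% of all genes tested (35.8% higher and 30.7% lower).

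The probe sets whose 6 values moved most like those of FCER1G were 214163_at of IFT25, 202241_at of TRIB1 and 206488_s_at of CD36, ranked by the distance between log2 profiles after each probe set's mean was subtracted, over the 6 arrays and 17549 probe sets of other genes. IFT25, a protein of transport in cilia, went from 3.33 to 7.41 on that probe set, but 2 brighter ones changed far less, 203960_s_at from 9.97 to 11.15 (2.26-fold) and the brightest by 0.99. TRIB1, a pseudokinase that targets C/EBP factors for breakdown, went from 2.91 to 6.96. CD36, a scavenger receptor of macrophages, went from 6.62 to 10.61, and its other 2 tested probe sets differed by 4.07 and 3.82. With 2 groups of 3 arrays this likeness mostly reflects a group difference of like size.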

How the data were processed

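Each array has 1 deposited intensity per probe set, on a linear scale. The submitters' processing notes name GCRMA; its version and whether values were scaled afterwards are not stated in the sources used here. GCRMA corrects background from probe sequence and compresses dim probe sets near a floor, so small changes there are not readable. Here 6 values under 1 were set to 1 before log2, and 62 control probe sets were left out. The 2 groups were fitted with limma 3.58.1 (lmFit, then eBayes, two-sided, no covariate, R 4.3.3), and Benjamini-Hochberg adjustment ran over the 20552 tested probe sets. The fit was also run on simulated data with a small share of planted changes. That run does not test the scaling or the large share of calls seen here. "Rose" and "fell" are used of adjusted p under 0.05. Genes outside the 10 were represented by their brightest tested probe set. Named by rule were all member probe sets, up to 4 genes per list with the smallest adjusted p among called genes without overlap between groups, B2M, SYK, SPI1 and the 3 genes most like FCER1G. Other genes were named outside this rule, among them LYN, PTPN6, CD4, ITGAM, TRIM21, RARA, genomic neighbours and genes that were not tested. Members and lists were chosen with earlier results of these data known. A fold is the log2 difference taken as a power of 2; where all 3 arrays of a group were at or below 4, the bound sets the brighter mean against 4. Symbols come from GEO's platform annotation, in which 41091 probe sets carry 1 symbol, 1801 carry several and 11721 carry none. Promoter windows and gene positions come from RefSeq tables of GRCh38.p14. Protein sequences were not used here. Plots used matplotlib 3.10.9 (Python 3.11.15). The number of arrays limits the precision.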

Additional observations from a re-analysis of the deposited data

How the results depend on the processing

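All 8 tested member probe sets kept their direction under every alternative in which they were tested, and 7 of them also kept their call: quantile normalization, median centring, array weights, no filter, a stricter filter (log2 over 6), the replicate block, eBayes with trend and robust settings, omission of probe sets ending in _x_at or _s_at, values under 4 raised to 4, and omission of each array in turn. The exception was FCGRT, at -0.29 with no filter (limma, adjusted p = 0.117) and between -0.38 and -0.23 over the omissions of an array. Of these omissions, only that of uninduced replicate 3 kept its call (-0.38, limma, adjusted p = 0.004). Its size also moved with the scaling. It was -0.38 after quantile normalization (limma, adjusted p = 0.00181) and -0.36 after median centring (limma, adjusted p = 0.00217). FCAR was not tested under the stricter filter. The count of called member probe sets ranged from 4 to 5 higher and from 2 to 3 lower. Without _x_at and _s_at probe sets, 4365 probe sets were higher and 3172 lower, because fewer were tested, and 18 genes of the surrounding lists were lower in place of 28. Of 270 counts per list under the alternatives, 262 stayed within 1.5 times. Same-numbered arrays correlated at -0.173, 0 and 0.18 in their deviations from the group mean, and differently numbered arrays at -0.238 to 0.209. These values gave no sign of pairing but cannot show that same-numbered samples were handled apart. The replicate block gave 7099 probe sets higher and 5710 lower, changing no call of a member. Quantile normalization shifted the median difference of all tested probe sets by -0.086 and median centring by -0.079 on the log2 scale. For FCGR1A, FCGR2B and TREM1 no probe set assigned to the gene alone lay above the filter in either group. These probe sets showed no rise above the filter, and they could not show a fall. The probe set that FCGR1A shares with FCGR1BP and FCGR1CP did fall, and which of these transcripts it reads was not tested.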
